A study of Homo sapiens with 6 samples.

Results

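The amino acid transporter genes described here are the protein-coding genes of the solute carrier families SLC1, SLC3, SLC6, SLC7, SLC36, SLC38 and SLC43, chosen by gene symbol, with no threshold on a measured value. The gene table held 45 such genes among 29185 genes, and 31 of the 45 had enough reads to be tested. They were compared between SKOV3 cells in which the transcription factor KLF5 had been silenced (sh-KLF5, 3 libraries) and control SKOV3 cells (sh-NC, 3 libraries). The line SKOV3 was derived from a human ovarian carcinoma and is established in culture. Polyadenylated RNA was sequenced, and the study used the comparison to look for genes downstream of KLF5 that bear on resistance to PARP inhibitors. The sequenced cells are labelled SKOV3, not SKOV3-olaR, the olaparib-resistant line that the study also used. The knockdown sequence was carried in the lentiviral vector pLKO.1-EGFP-Puro, and stable lines were obtained by puromycin selection. The labels give the genotype of the sh-NC cells as wild type and that of the sh-KLF5 cells as KLF5 knockdown, and the study names sh-NC as the control. The sources used here do not say how many hairpins the sequenced line represents, nor whether the libraries came from separate cultures, so the p-values measure only the spread between these libraries, which may be technical.

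Amino acids cross the plasma membrane through carriers that differ in their substrates and in the ions they move with them. Many SLC7 proteins are light chains that reach the membrane only when joined to an SLC3 heavy chain: SLC7A5 (LAT1) with SLC3A2 (4F2hc, CD98) exchanges large neutral amino acids such as leucine, and SLC7A11 (xCT) with the same heavy chain imports cystine in exchange for glutamate. SLC1 and SLC38 carriers take up acidic and small neutral amino acids with sodium, several SLC36 and SLC38 proteins work at the lysosome, and tumour cells commonly rely on SLC1A5 and SLC38A2 for glutamine and on xCT for the cysteine of glutathione. The families also hold carriers of other solutes, among them SLC6A8 (creatine), SLC6A6 (taurine), SLC6A12 (betaine and GABA), SLC6A11 (GABA) and SLC43A3 (purine nucleobases), which the choice by symbol brought in.

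The reads counted on genes totalled 15852319 to 17543896 in the sh-NC libraries and 16009859 to 16871350 in the sh-KLF5 libraries. KLF5 (chromosome 13, 73054976 to 73077542, plus strand, GRCh38) had normalized counts of 4371, 4425 and 4494 in sh-NC and of 1745, 1439.9 and 1436 in sh-KLF5, which left 34.8% of the control mean. All 7 epithelial carcinoma markers were in the table, led by KRT8, and KRT19 had at most 17 reads in any library. Their summed reads were 25923 to 32766 in sh-NC and 11726 to 16488 in sh-KLF5. Most of these were KRT8 reads, at 24997, 19730 and 21424 in sh-NC and 7421, 10715 and 11461 in sh-KLF5. Reads of KRT18 and ERBB2 were also lower in every sh-KLF5 library, whereas those of EPCAM, KRT19, PAX8 and CD24 overlapped between the groups. The 6 fibroblast markers summed to 1002 to 1630 reads in sh-NC and to 399 to 739 reads in sh-KLF5, the 3 endothelial markers to 71 to 82 and 34 to 76 reads, and the 2 leukocyte markers in the table to at most 3 reads in any library. The part of these differences in the results below was not tested. All libraries are of the cultured line SKOV3, so reads of fibroblast or endothelial markers do not show that such cells were present. In bulk RNA, fewer cells expressing a gene and less of its RNA per cell cannot be told apart.

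Among the 31 tested transporter genes, SLC1A3 alone rose by more than the fold threshold after KLF5 silencing, and 8 further genes changed by less. SLC7A2, SLC6A15, SLC7A11 and SLC6A8 were higher in sh-KLF5, whereas SLC6A9, SLC7A5, SLC6A17 and SLC7A1 were lower. Calls required an adjusted p under 0.05 (limma, Benjamini-Hochberg over all 15803 tested genes) and a log2 fold change (sh-KLF5 against sh-NC, on log2(normalized count + 1)) above 1 or below -1. By this rule 1 of 31 transporter genes was called (3.23%), against 5.28% of all tested genes (1.9% higher and 3.37% lower), and the count was 0 without sh-NC replicate 3 and 2 without sh-KLF5 replicate 3. By the adjusted p alone, 9 of 31 passed (29%), 5 higher and 4 lower, against 12.9% of all tested genes (6.04% higher and 6.85% lower). The 5 higher became 3 without sh-NC replicate 1, 2 or 3 or sh-KLF5 replicate 3, whereas the 4 lower became 2 without sh-NC replicate 1, 2 or 3 or sh-KLF5 replicate 2 and 6 without sh-KLF5 replicate 1, in fits with fewer libraries. The sh-KLF5 and sh-NC libraries did not overlap in 12 of the 31 (38.7%), 5 higher and 7 lower, against 31.3% of all tested genes (15.4% higher and 15.9% lower). Of the 31, 0 were called lower by limma, by edgeR or by DESeq2, and also 0 passed at an unadjusted p under 0.05 with the same fold, against 4.15% of all tested genes. By the unadjusted p alone, 13 transporter genes passed, against 26.2% of all tested genes, 6 of them higher (12.8% of all) and 7 lower (13.4% of all). With no filter on low counts, or without sh-KLF5 replicate 1, 1 gene outside the 31, SLC38A4, was called lower by limma. The median log2 fold change of the 31 genes was -0.04, with a range from -0.90 to 1.21, and that of all tested genes was -0.002. The words rose and fell are used below for genes with an adjusted p under 0.05.

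**Figure D1:**
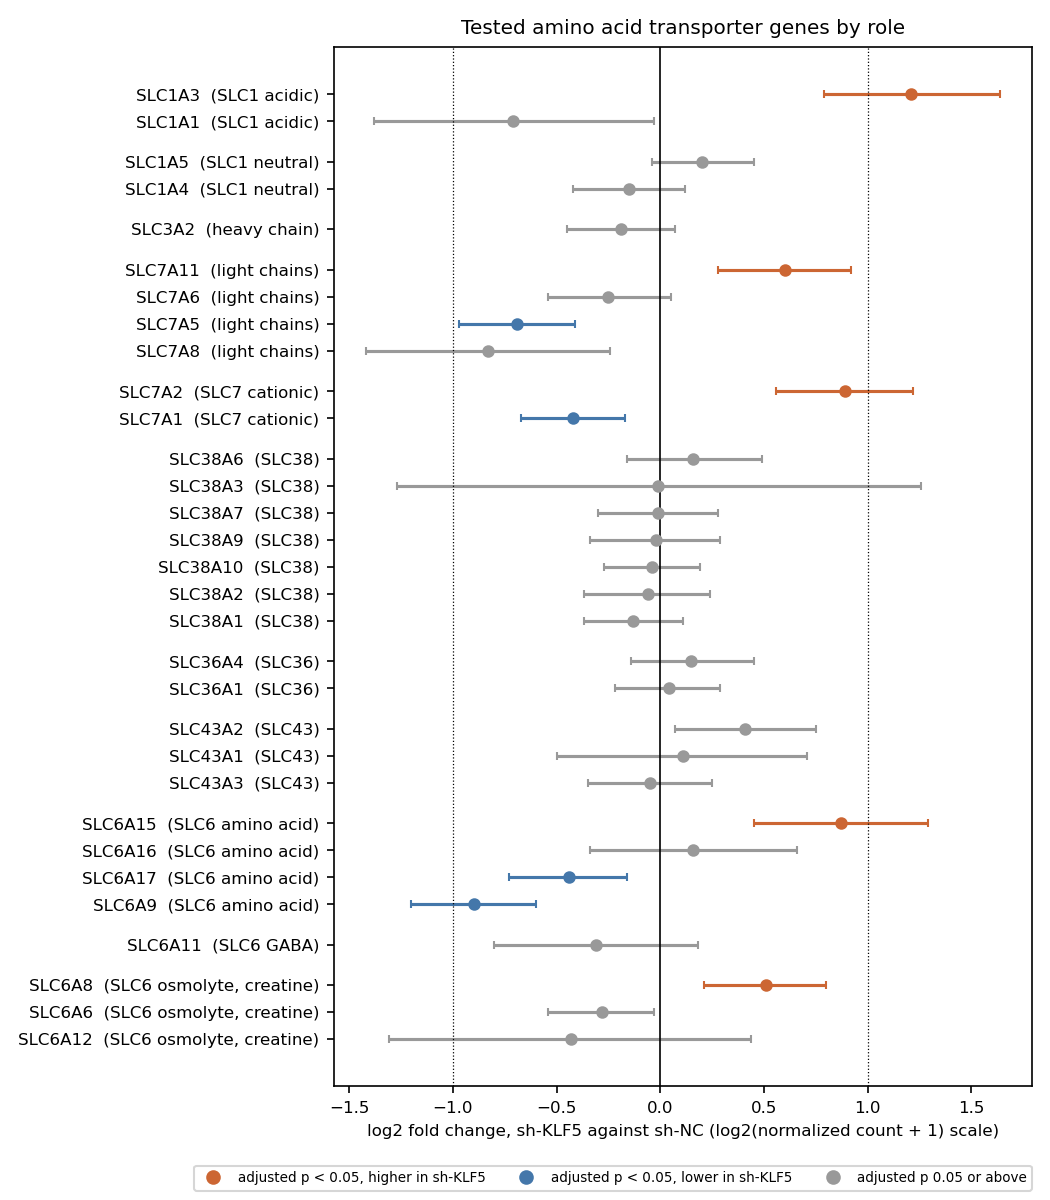
Log2 fold change (horizontal axis, sh-KLF5 against sh-NC on the log2(normalized count + 1) scale) of the 31 tested amino acid transporter genes, grouped by role, with bars for the 95% confidence interval from limma (3 libraries per group). Dotted lines mark the fold threshold of 1 in each direction, and SLC1A3 is the only point beyond either line with an adjusted p under 0.05, while all 7 SLC38 genes lie between -0.13 and 0.16.

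By level per kilobase of exonic length, 1 light chain held over 50% of the summed transporter signal in the control cells. SLC7A5 stood at 13159 ± 1170.1 normalized counts per kb in sh-NC (SD, n = 3), which was 53.6% ± 1.9 of the sum over all 45 transporter genes. SLC38A2, a sodium-coupled carrier of small neutral amino acids and glutamine, followed at 4284 ± 154 (17.5%), ahead of the heavy chain SLC3A2 at 1883 ± 219 and the glutamine carrier SLC1A5 at 1259.6 ± 101. SLC38A1, a glutamine carrier, stood at 1021 ± 25.4, SLC7A1, which carries arginine and lysine, at 615 ± 5.78, SLC38A10 at 325 ± 8.99 and SLC7A11 at 279.9 ± 24.1. The first 7 of these means were each separated from the next by more than the SDs of both, but SLC7A11 and the creatine carrier SLC6A8 (266 ± 1.36), which came next, differed by less than the SD of SLC7A11. The order of the first 7 was the same with the length of the longest coding transcript, an alternative chosen after seeing the data, while SLC7A11 moved to place 10 and the share of SLC7A5 to 44.9%.

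In sh-KLF5 the first 6 places were unchanged, with SLC7A5 at 8209.9 ± 1291 normalized counts per kb and SLC38A2 at 4167 ± 982. The share of SLC7A5 in the summed level was 52.5%, 52.6% and 55.8% in the sh-NC libraries. In the sh-KLF5 libraries it was 37.2%, 43% and 46.7%, and the groups did not overlap. SLC7A5 is part of both the share and the summed level, so neither is independent of the level of SLC7A5 alone. SLC7A11 stood at 431 ± 108 per kb in sh-KLF5, within the SDs of SLC7A1 above it (463 ± 58.5) and of SLC6A8 below it (384 ± 78.2). The summed level of all 45 transporter genes reached 24499.9 ± 1294 normalized counts per kb (SD, n = 3) in the sh-NC libraries and 19397 ± 1425 in the sh-KLF5 libraries, with SLC7A5 its largest term in every library.

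**Figure D2:**
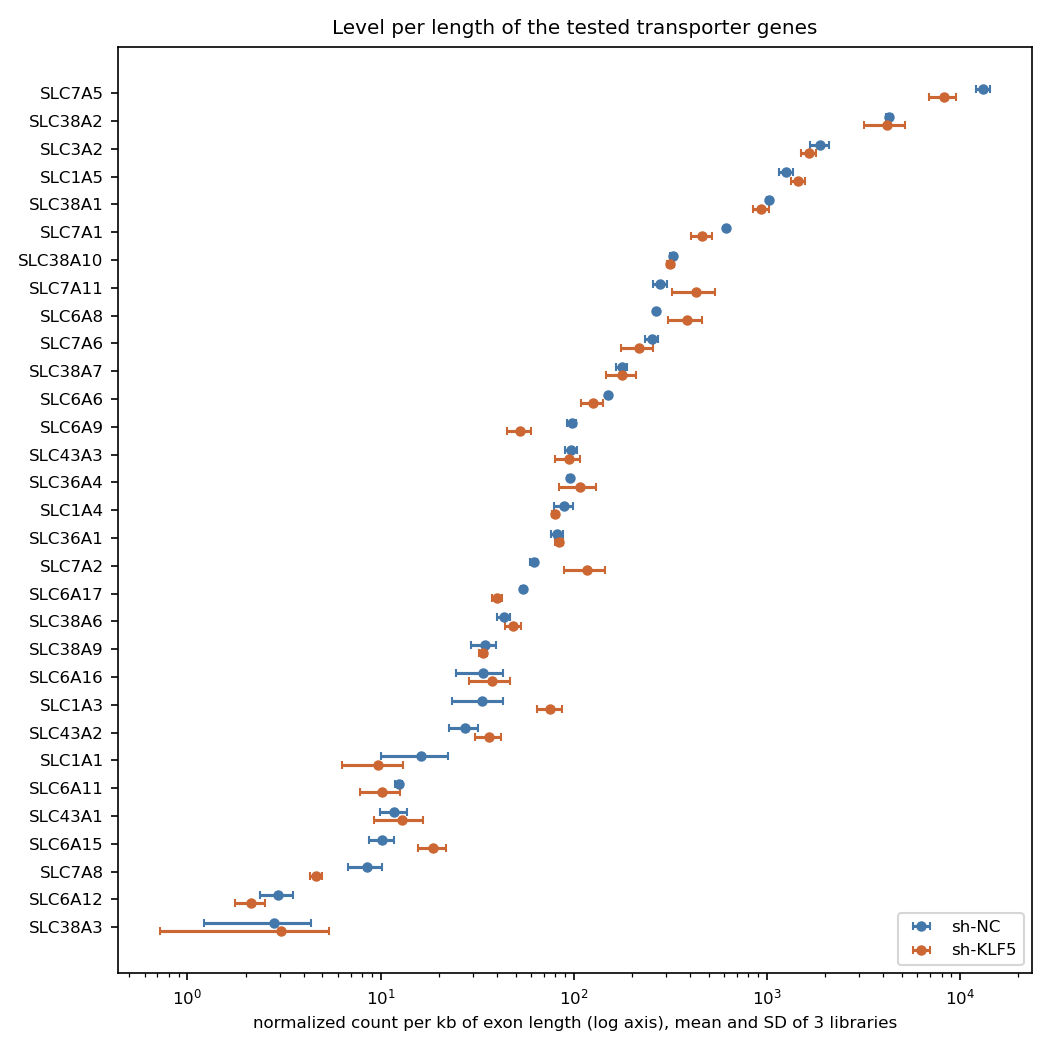
Levels of the tested amino acid transporter genes (horizontal axis, normalized count per kb of exonic length, log axis) in sh-NC and sh-KLF5, in the order of their sh-NC mean; points are means and bars SDs of the 3 libraries per group. SLC7A5 leads in both groups at 13159 and 8209.9, SLC38A2 and SLC3A2 follow, and SLC38A3 is the lowest in sh-NC.

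Among the light chains, the leucine carrier SLC7A5 fell and the cystine carrier SLC7A11 rose. SLC7A5 (chromosome 16, 87830023 to 87869488, minus strand, GRCh38) had normalized counts of 59706, 58788 and 68830.4 in sh-NC and of 34442, 36497 and 45929.5 in sh-KLF5. Every sh-KLF5 library lay below every sh-NC library, and 62.4% of the control mean remained. The log2 fold change was -0.69 ± 0.13 (SE), with an adjusted p of 0.00177 (limma, Benjamini-Hochberg). An opposite-strand gene that shares 5.71% of the exonic bases of SLC7A5, AC126696.2, had at most 25 reads, and the pseudogene SLC7A5P1 at most 18, far fewer than SLC7A5 itself. The pseudogene count does not show how reads matching both copies were counted. SLC7A11 (chromosome 4, 138164097 to 138242349, minus strand) had normalized counts of 2468, 2933 and 2698 in sh-NC and of 3927, 3253 and 5298 in sh-KLF5. The groups did not overlap, but the sh-KLF5 libraries were spread widely, at 4159.5 ± 1042 (SD, n = 3) against 2700.0 ± 233. Its log2 fold change was 0.60 ± 0.15 (SE, limma, adjusted p = 0.0149), and the adjusted p lay between 0.0569 and 0.0792 without sh-NC replicate 1, sh-NC replicate 3, sh-KLF5 replicate 1 or sh-KLF5 replicate 3. SLC7A11-AS1, which shares 8.97% of its exonic bases from the opposite strand, had at most 73 reads and a log2 fold change of 0.26 (limma, adjusted p = 0.701). Whether strand was used in counting is not given in the sources used here.

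The heavy chain and the other tested light chains did not pass the test. SLC3A2, the partner of both carriers above, had normalized counts of 9589, 8699.7 and 10956 in sh-NC and of 9014, 7679 and 8879 in sh-KLF5, and the groups overlapped. Its log2 fold change was -0.19, with a 95% confidence interval from -0.45 to 0.07 (limma, adjusted p = 0.353). SLC7A8 (LAT2), a further neutral amino acid light chain, was low, at 40, 52.2 and 60.5 in sh-NC and 26.5, 30.1 and 27.1 in sh-KLF5. These groups did not overlap, and the log2 fold change was -0.83 ± 0.28 (SE) with an adjusted p of 0.0637 (limma). SLC7A6, an exchanger of cationic and neutral amino acids, had a log2 fold change of -0.25 (limma, adjusted p = 0.282), and 44.4% of its exonic bases are shared with the opposite-strand gene SLC7A6OS, so its value is uncertain.

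The balance between transporters was also compared as ratios of normalized counts per kb within each library, for which the exact permutation test of 3 against 3 libraries (two-sided) cannot give a p below 0.1. SLC7A5 per SLC3A2 stood at 6.79, 7.37 and 6.86 in sh-NC and at 4.17, 5.19 and 5.64 in sh-KLF5, and SLC7A11 per SLC3A2 was 0.138, 0.181 and 0.132 in sh-NC and 0.234, 0.227 and 0.32 in sh-KLF5. The 2 light chains thus moved in opposite directions relative to their shared heavy chain in these libraries. SLC7A11 per SLC7A5 was 0.0203, 0.0245 and 0.0193 in sh-NC and 0.0561, 0.0439 and 0.0567 in sh-KLF5, a 2.44-fold higher mean. SLC1A5 per SLC7A5 was 0.0971, 0.0955 and 0.0947 in sh-NC and 0.196, 0.176 and 0.163 in sh-KLF5, a 1.86-fold higher mean. SLC7A2 per SLC7A1, the pair of cationic amino acid carriers, was 0.102, 0.0964 and 0.104 in sh-NC and 0.334, 0.28 and 0.166 in sh-KLF5. The groups did not overlap in any of the 5 ratios, and each had the smallest permutation p that this design allows, 0.1. For SLC7A11 per SLC7A5 and SLC7A2 per SLC7A1 this follows from the values of the single genes, which already did not overlap in opposite directions, and adds nothing to them. The other ratios each hold SLC7A5 or SLC7A11, which did not overlap alone, beside SLC3A2 or SLC1A5, which overlapped. They are therefore not independent of the single-gene results either. The size of a ratio depends on the gene length used: by the longest coding transcript, SLC7A5 per SLC3A2 had a mean of 3.15 ± 0.143 (SD, n = 3) in the sh-NC libraries and of 2.24 ± 0.339 in the sh-KLF5 libraries.

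**Figure D3:**
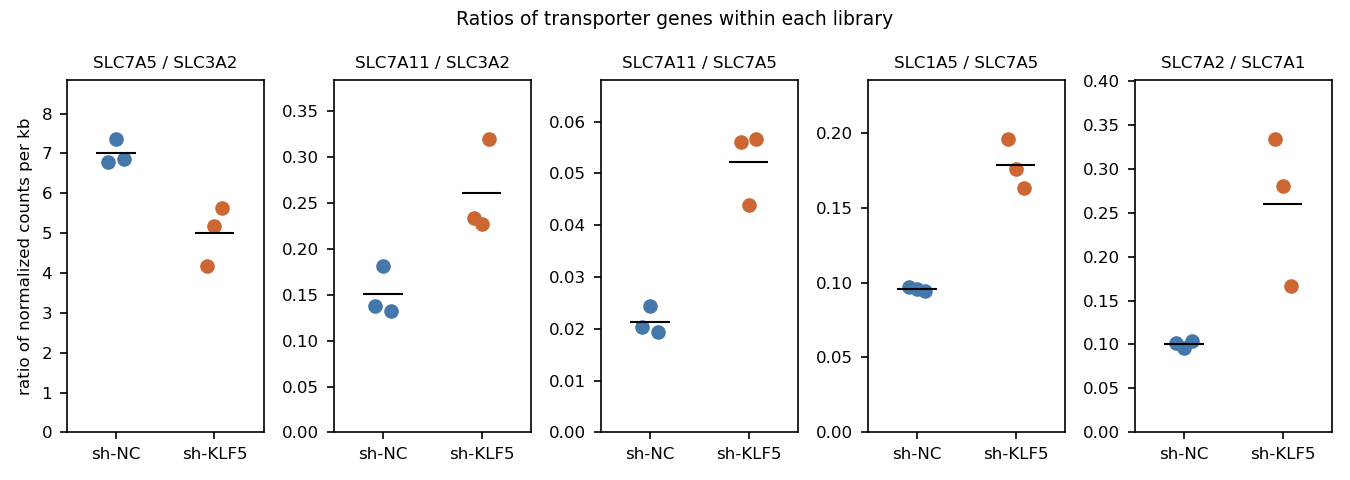
Ratios of transporter genes (normalized count per kb of one gene divided by that of the other) in each of the 3 sh-NC and 3 sh-KLF5 libraries, 1 panel per ratio with a linear axis from 0 and horizontal bars for the group means. SLC7A5 per SLC3A2 is lower in all 3 sh-KLF5 libraries (4.17 to 5.64 against 6.79 to 7.37), and the other 4 ratios are higher in all 3.

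The 2 tested cationic carriers moved in opposite directions. SLC7A2 (CAT2; chromosome 8, 17497088 to 17570573, plus strand) had normalized counts of 492, 468 and 509 in sh-NC and of 1136, 945 and 695 in sh-KLF5. The groups did not overlap, with the sh-KLF5 mean at 189% of the control mean and the sh-KLF5 libraries spread over a wider range. Its log2 fold change was 0.89 ± 0.16 (SE, limma, adjusted p = 0.000917), and it passed the fold threshold, at 1.08, only without sh-KLF5 replicate 3. SLC7A1 (CAT1; chromosome 13, 29509410 to 29595688, minus strand), the more abundant carrier, had 4693, 4723 and 4780.1 in sh-NC and 3314, 3288 and 4079.8 in sh-KLF5. Again the groups did not overlap, and the log2 fold change was -0.42 ± 0.12 (SE, limma, adjusted p = 0.0267). Without sh-NC replicate 1, 2 or 3 or sh-KLF5 replicate 2, the adjusted p of SLC7A1 was between 0.0965 and 0.118.

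Of the SLC1 carriers, the glutamate and aspartate transporter SLC1A3 (EAAT1; chromosome 5, 36606355 to 36688334, plus strand) was the called gene. It had normalized counts of 265, 218 and 142 in sh-NC and of 506, 522 and 392 in sh-KLF5. Every sh-KLF5 library was above every sh-NC library, and the sh-KLF5 mean was 227% of the control mean. The log2 fold change was 1.21 ± 0.20 (SE, limma, adjusted p = 0.000518), and without sh-NC replicate 3, the lowest library, it was 0.96, below the fold threshold. The other tested acidic carrier, SLC1A1 (EAAT3), which also takes up cysteine, had 90.3, 41.4 and 62.6 in sh-NC and 54, 32 and 30.1 in sh-KLF5. These groups overlapped, at a log2 fold change of -0.71 (limma, adjusted p = 0.169). The neutral carrier SLC1A5 (ASCT2) had 4069.7, 3941 and 4579.6 in sh-NC and 4740.4, 4499 and 5255 in sh-KLF5, with a log2 fold change of 0.20 (95% confidence interval -0.04 to 0.45, limma, adjusted p = 0.289). SLC1A4 (ASCT1), a carrier of serine and alanine, had a log2 fold change of -0.15 (limma, adjusted p = 0.493).

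**Figure D4:**
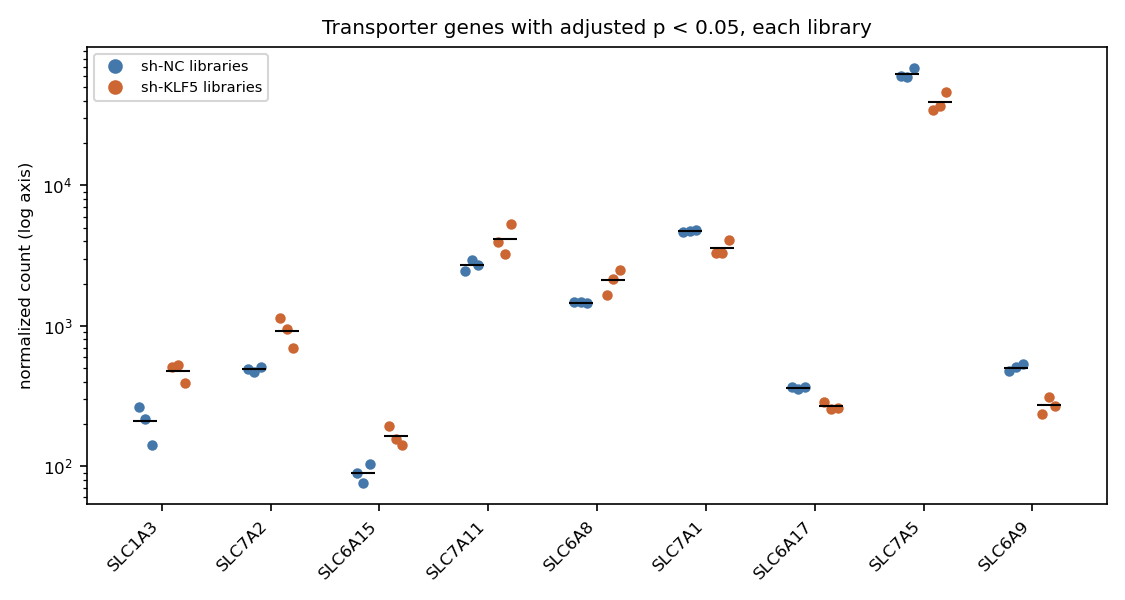
Normalized counts in each library (points, vertical log axis; horizontal bars, group means; n = 3) of the 9 transporter genes with an adjusted p under 0.05. For all 9 genes the sh-NC and sh-KLF5 points do not overlap: SLC1A3, SLC7A2, SLC6A15, SLC7A11 and SLC6A8 are higher in sh-KLF5, and SLC7A1, SLC6A17, SLC7A5 and SLC6A9 are lower.

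None of the 12 tested genes of the SLC38, SLC36 and SLC43 families passed the test, where 12.9% of all tested genes passed by adjusted p. SLC38A2 had normalized counts of 28957, 28774 and 27117 in sh-NC and of 34993, 23795 and 23739.8 in sh-KLF5. The sh-KLF5 libraries lay on both sides of the control libraries, and the log2 fold change was -0.06 (95% confidence interval -0.37 to 0.24, limma, adjusted p = 0.822). SLC38A1 had a log2 fold change of -0.13 (95% confidence interval -0.37 to 0.11, limma, adjusted p = 0.517) and the lysosomal amino acid sensor SLC38A9 one of -0.02 (-0.34 to 0.29, adjusted p = 0.949). The proton-coupled carriers SLC36A1 and SLC36A4 had log2 fold changes of 0.04 and 0.15. SLC43A2 (LAT4), a facilitated carrier of large neutral amino acids, had 344, 248 and 276 in sh-NC and 387, 324 and 443 in sh-KLF5, which overlapped, with a log2 fold change of 0.41 (limma, adjusted p = 0.113).

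In the sodium- and chloride-dependent SLC6 family, 2 of 8 tested genes rose (6.04% of all tested genes) and 2 fell (6.85% of all) by adjusted p. SLC6A9 (GlyT1; chromosome 1, 43991500 to 44031467, minus strand), a glycine transporter, had normalized counts of 475, 505 and 531 in sh-NC and of 234, 309 and 269.7 in sh-KLF5. The groups were far apart relative to their spread, with 53.8% of the control mean remaining. Its log2 fold change of -0.90 ± 0.14 (SE, limma, adjusted p = 0.000352) was the lowest of the 31 and had the smallest adjusted p. The opposite-strand gene CCDC24 shares 7.83% of its exonic bases and had 112 to 182 reads per library and a log2 fold change of 0.05. SLC6A15 (B0AT2; chromosome 12, 84859488 to 84913615, minus strand), a carrier of branched-chain amino acids and proline, had 89.4, 75.9 and 103 in sh-NC and 194, 157 and 141 in sh-KLF5. It rose without overlap of the groups, by 0.87 ± 0.20 on the log2 scale (SE, limma, adjusted p = 0.00717), and had an adjusted p of 0.0529 without sh-NC replicate 2.

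SLC6A8, the creatine carrier (chromosome X, 153688099 to 153696593, plus strand), had normalized counts of 1469, 1468 and 1456 in sh-NC and of 1657, 2167 and 2512 in sh-KLF5. The control libraries were almost equal and all sh-KLF5 libraries were above them, with a log2 fold change of 0.51 ± 0.14 (SE, limma, adjusted p = 0.0225). The near-identical pseudogene SLC6A10P had at most 13 reads, which does not show how reads matching both genes were counted. Leaving out any library except sh-KLF5 replicate 1 put the adjusted p of SLC6A8 between 0.0757 and 0.0923. SLC6A17 (NTT4; chromosome 1, 110150486 to 110202202, plus strand), a vesicular carrier of neutral amino acids in neurons, had 368, 355 and 366 in sh-NC and 285, 254 and 261 in sh-KLF5. It fell without overlap of the groups, at a log2 fold change of -0.44 ± 0.13 (SE, limma, adjusted p = 0.0396). Its adjusted p was between 0.0839 and 0.153 without any 1 library other than sh-KLF5 replicate 1, and 0.079 with no filter on low counts. The taurine carrier SLC6A6 (log2 fold change -0.28, limma, adjusted p = 0.147) and the betaine carrier SLC6A12 (-0.43, adjusted p = 0.553) did not overlap between the groups but did not pass the test.

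The 14 transporter genes that were not tested had few reads in every library, and 7 of them had 3 reads or fewer in each. SLC38A4 had the most, with 25, 7 and 14 reads in sh-NC and 9, 1 and 4 in sh-KLF5, followed by the light chain SLC7A7 with 18, 10 and 9 in sh-NC and 9, 9 and 5 in sh-KLF5. SLC7A9 had 2 to 8 reads per library. SLC38A11 had 0, 6 and 4 reads in sh-NC and 0 in each sh-KLF5 library, where a count of 0 allows up to 3 reads. SLC1A2, SLC36A3, SLC38A5, SLC6A4, SLC6A13, SLC6A14, SLC6A19, SLC7A4 and SLC7A10 each had at most 5 reads in any library. The filter on low counts kept these genes out of the main test, and the limit that a count of 0 allows covers counting error only.

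The bases upstream of RefSeq transcript starts (GRCh38.p14) were read for the transporter genes, since KLF factors bind GC-rich boxes and the amino acid and oxidant responses act through short elements. Promoters of 35 of the 45 genes were matched. Of the 9 genes with an adjusted p under 0.05, 6 had a matched window, and the 250 bases before the start are shown for each, 5′ to 3′ on the strand of the gene. Capitals mark matches, on either strand, to 4 motifs. These were the box named after its letters CACCC, the GC box with the letters GGGCGG, the core TGATGNAA of the amino acid response element and the core TGACNNNGC of the antioxidant response element. They come from chr5:36596338-36596587 (plus strand, SLC1A3), chrX:153687676-153687925 (plus, SLC6A8), chr1:44031463-44031712 (minus, SLC6A9), chr1:110150244-110150493 (plus, SLC6A17), chr13:29595689-29595938 (minus, SLC7A1) and chr16:87869508-87869757 (minus, SLC7A5). SLC1A3 has 3 RefSeq starts, and the window shown is the only one that lies before the start of the gene in the table, far upstream of it.
SLC1A3: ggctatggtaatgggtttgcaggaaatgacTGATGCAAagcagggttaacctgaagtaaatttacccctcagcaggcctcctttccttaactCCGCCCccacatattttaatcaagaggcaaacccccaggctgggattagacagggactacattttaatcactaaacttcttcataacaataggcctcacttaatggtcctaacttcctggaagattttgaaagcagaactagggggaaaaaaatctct
SLC6A8: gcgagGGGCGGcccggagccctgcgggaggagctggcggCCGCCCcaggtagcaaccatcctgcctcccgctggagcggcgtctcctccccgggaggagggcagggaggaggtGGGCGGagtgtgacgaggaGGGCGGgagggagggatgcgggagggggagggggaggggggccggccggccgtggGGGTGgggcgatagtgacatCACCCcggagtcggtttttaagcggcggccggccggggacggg
SLC6A9: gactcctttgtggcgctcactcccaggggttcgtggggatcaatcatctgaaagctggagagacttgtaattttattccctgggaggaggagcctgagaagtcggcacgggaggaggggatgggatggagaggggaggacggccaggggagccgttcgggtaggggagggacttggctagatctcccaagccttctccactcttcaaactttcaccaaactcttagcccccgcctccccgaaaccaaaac
SLC6A17: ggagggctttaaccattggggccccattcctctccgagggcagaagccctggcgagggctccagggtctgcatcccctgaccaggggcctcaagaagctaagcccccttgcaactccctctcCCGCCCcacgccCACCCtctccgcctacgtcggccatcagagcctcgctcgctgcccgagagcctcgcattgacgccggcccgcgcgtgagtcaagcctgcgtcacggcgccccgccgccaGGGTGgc
SLC7A1: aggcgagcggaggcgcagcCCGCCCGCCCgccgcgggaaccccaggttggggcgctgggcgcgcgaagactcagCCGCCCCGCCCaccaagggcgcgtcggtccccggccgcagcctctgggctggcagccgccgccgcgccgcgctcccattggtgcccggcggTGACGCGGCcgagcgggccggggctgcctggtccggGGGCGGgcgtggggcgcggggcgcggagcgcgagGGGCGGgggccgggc
SLC7A5: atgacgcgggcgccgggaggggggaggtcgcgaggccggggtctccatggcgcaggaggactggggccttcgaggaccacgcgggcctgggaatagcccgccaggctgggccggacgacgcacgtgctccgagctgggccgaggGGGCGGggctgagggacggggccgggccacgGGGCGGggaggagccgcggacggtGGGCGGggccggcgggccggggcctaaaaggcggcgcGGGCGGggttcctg
The SLC1A3 window shown held 1 GC box match and 1 amino acid response element core. Its other 2 windows, inside the gene as the table places it and not shown, held neither of these, but 2 CACCC box matches in 1 and 1 antioxidant response element core in the other. The SLC6A8 window held 2 CACCC box and 4 GC box matches, and the SLC6A17 window 2 and 1. The SLC6A9 window held none of the motifs, the SLC7A1 window held 6 GC box matches, of which some overlap each other, and 1 antioxidant response element core, and the SLC7A5 window held 4 GC box matches. No 2 matches of different motifs overlapped in these windows. The GC box was in 28 of the 43 windows of 24 tested transporter genes (65.1%) and in 42.6% of all 35116 windows, and the CACCC box in 24 (55.8%) and 54.7%. The amino acid response element core was in 2 windows (4.65%) against 3.14%, and the antioxidant response element core in 5 (11.6%) against 10.9%. Of the 8 windows of the 6 genes with an adjusted p under 0.05, 3 held a CACCC box, 5 a GC box, 1 an amino acid response element core and 2 an antioxidant response element core. The windows of all genes were not limited to tested genes or matched for GC content, and some genes had several windows, so the shares are not a like comparison. A match says only that these letters are in the window.

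Of the other genes of amino acid metabolism, response and sensing, a list of 115 genes of which 107 were in the table and 99 were tested, 3 were called higher and 9 lower by limma, where 1.9% and 3.37% of all tested genes were called. By adjusted p alone 10 rose and 14 fell, against 6.04% and 6.85% of all tested genes, and the median log2 fold change was 0.01. In the amino acid response list, 2 of 22 tested genes were called higher (1.9% of all tested genes) and 2 lower (3.37% of all), with a median of 0.01. CEBPB, a transcription factor of the stress response, had normalized counts of 1362, 1358 and 1717 in sh-NC and of 2796, 3525 and 3172 in sh-KLF5 (log2 fold change 1.10), and the secreted glycoprotein gene STC2 had a log2 fold change of 1.14. WARS, the tryptophanyl-tRNA synthetase, had 11354, 11248 and 11261 in sh-NC and 5103, 5773 and 4968 in sh-KLF5 (log2 fold change -1.10). GDF15, a stress-induced cytokine, had a log2 fold change of -1.24 (limma, adjusted p = 0.034), which was between 0.0789 and 0.179 without any 1 library other than sh-KLF5 replicate 1.

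Among 31 tested enzymes of amino acid metabolism, 1 rose (6.04% of all tested genes) and 6 fell (6.85% of all) by adjusted p, with a median log2 fold change of -0.08. The 2 called genes were BCAT1, the cytosolic branched-chain aminotransferase, and GLDC, the decarboxylase of the glycine cleavage system. BCAT1 had 265, 113 and 99 reads in sh-NC and 13, 0 and 4 in sh-KLF5 (limma, adjusted p = 0.0039, and 0.0539 without sh-KLF5 replicate 3). GLDC had 184, 155 and 121 reads in sh-NC and 4, 3 and 6 in sh-KLF5 (limma, adjusted p = 8.27e-08). Of the 6 listed enzymes of serine synthesis and serine-derived one-carbon metabolism, grouped after their values were seen, 3 fell by adjusted p (6.85% of all tested genes) and 3 did not pass. Leaving out single libraries was not examined for these enzymes, and PHGDH passed only narrowly. PSAT1 had a log2 fold change of -0.55 (limma, adjusted p = 0.00496), PHGDH one of -0.37 (adjusted p = 0.0481) and mitochondrial MTHFD2 one of -0.90 (adjusted p = 7.1e-05), whereas PSPH stood at 0.11 (adjusted p = 0.643), SHMT1 at -0.08 (0.707) and SHMT2 at -0.02 (0.937). Glutamine synthetase, GLUL, had a log2 fold change of -0.45 (limma, adjusted p = 0.0307). KYNU, an enzyme of tryptophan breakdown, rose by 0.70 (limma, adjusted p = 0.00116). Leaving out single libraries was not examined for GLUL or KYNU either.

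In the glutathione list, which takes its cysteine in part from the product of SLC7A11, 1 of 9 tested genes rose (6.04% of all tested genes) and 3 fell (6.85% of all) by adjusted p, with a median log2 fold change of 0.09. GCLM, a subunit of glutamate-cysteine ligase, rose by 0.42 (limma, adjusted p = 0.0262). Glutathione reductase, GSR, had a log2 fold change of -0.39 (limma, adjusted p = 0.0401). Leaving out single libraries was not examined for GCLM or GSR. GGT1, which breaks down extracellular glutathione, had 62, 29 and 46 reads in sh-NC and 6, 15 and 10 in sh-KLF5 (log2 fold change -2.05). OPLAH, the oxoprolinase, had 23, 21 and 17 reads in sh-NC and 1, 0 and 1 in sh-KLF5 (limma, adjusted p = 0.00053). In the amino acid sensing list, 6 of 24 tested genes rose (6.04% of all tested genes) and 1 fell (6.85% of all) by adjusted p, with a median of 0.12. The 6 were SESN1 (log2 fold change 1.02), a stress-induced inhibitor of mTORC1, the Rag GTPases RRAGA (0.49), RRAGC (0.52) and RRAGD (0.73), and the Ragulator subunits LAMTOR3 (0.57) and LAMTOR5 (0.50). The Rag and Ragulator genes had adjusted p-values from 0.00718 (RRAGD) to 0.0207 (LAMTOR3) by limma. Leaving out single libraries was not examined for them. SESN3, a relative of SESN1, had 107, 80 and 78 reads in sh-NC and 23, 25 and 7 in sh-KLF5 (log2 fold change -2.36).

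Of 13 tested amino acid carriers of other families, 2 were called lower (3.37% of all tested genes), both with few reads. The mitochondrial glycine carrier SLC25A38 had 45, 22 and 27 reads in sh-NC and 1, 0 and 0 in sh-KLF5 (limma, adjusted p = 7.37e-05), and the vesicular glutamate carrier SLC17A7 had 24, 25 and 45 reads in sh-NC and 4, 3 and 5 in sh-KLF5 (limma, adjusted p = 0.000989). For BCAT1, OPLAH, GLDC, SLC17A7 and SLC25A38 the size of the fitted fold change depends on the pseudocount. Relative to the fold threshold, SESN1 was at 0.86 without sh-KLF5 replicate 1 and STC2 at 0.92 without sh-KLF5 replicate 3.

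**Figure D5:**
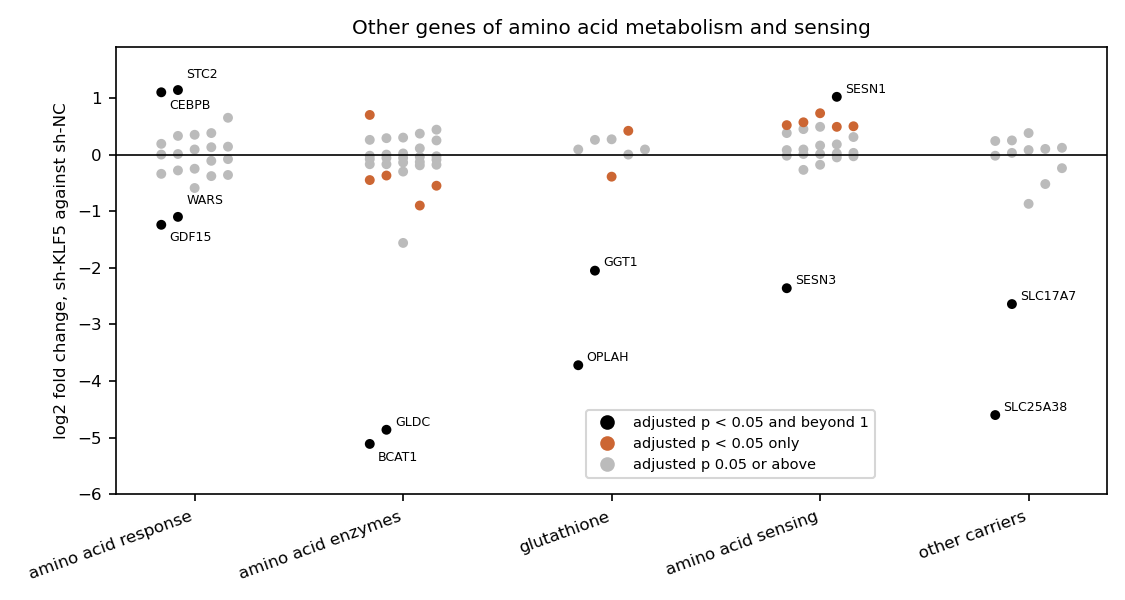
Log2 fold change (vertical axis, sh-KLF5 against sh-NC, limma) of the tested genes of 5 lists of amino acid metabolism, response and sensing, 1 point per gene. Black points are genes called beyond a log2 fold change of 1, of which 3 are higher and 9 lower, and most other points lie between -1 and 1.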

How the data were processed

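RNA-seq libraries of 3 sh-NC and 3 sh-KLF5 samples were analysed, with groups and replicate numbers taken from the labels. The deposited table lists 29185 genes and holds, for each library, a normalized signal that the authors obtained by dividing the reads per gene by a factor, together with gene lengths, gene annotation, group means, log2 fold changes and p-values. These authors' comparisons were not used. The submitters' processing notes name HISAT2 2.0.5, featureCounts 1.5.0-p3, DESeq2 1.20.0 and hg38. Dividing by the smallest value above 0 gave whole reads for 100% of values (tolerance 1e-06), and the implied factors matched DESeq2 size factors. Replicate libraries differed by more than sampling noise, so each counted as 1 replicate, which does not show that they came from separate cultures. The chi-square per degree of freedom was 4.325 to 8.408 between sh-NC libraries. Between sh-KLF5 libraries it was 10.44 for replicates 2 and 3. For sh-KLF5 replicate 1 it was 23.53 against replicate 2 and 30.43 against replicate 3.

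The test was limma 3.58.1 (R 4.3.3) with trend and robust empirical Bayes, run on log2(normalized count + 1), a scale that understates the change of low genes. Genes were kept by filterByExpr of edgeR 4.0.16 with a minimum count of 10, and p-values were adjusted by Benjamini-Hochberg over the 15803 tested genes. edgeR and DESeq2 1.42.0 on the recovered reads, other scalings, pseudocounts and filters were alternatives. The fits were tested on simulated data. Levels per kb used the exonic length in the table, which equals that of GENCODE release 29 for 100% of genes. Coordinates are those of the table. The rule for named genes took KLF5, every transporter gene with an adjusted p under 0.05, the 8 with the highest level per kb in sh-NC, tested chains of SLC3 and SLC7, and called genes of the pathway lists. Other genes were added as examples after their values were seen. The transporter genes and lists were chosen with earlier results of these data known. A further 14 genes of the annotation with such symbols were not analysed here, and the values of 1 untested gene are not reported here. Plots were made in Python 3.11.15 with matplotlib 3.10.9.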

Additional observations from a re-analysis of the deposited data

How the results depend on the processing

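With adjusted p alone, 5 transporter genes were higher and 4 lower, and 10 and 14 of the other amino acid genes. These transporter counts were the same by edgeR, DESeq2, other scalings and pseudocounts, and also with the replicate number as a block, under which 1 was called higher and 0 lower. The deviations of same-numbered libraries from their group means correlated at r = 0.059, 0.033 and 0.050, so the numbers were not taken to pair them. When single libraries were left out, the count called higher, 1, was at its lowest, 0, without sh-NC replicate 3 and at its highest, 2, without sh-KLF5 replicate 3 (SLC7A2 added), and the count called lower, 0, lay between 0 and 1 (SLC38A4, without sh-KLF5 replicate 1). SLC38A4 was also the 1 gene called lower with no filter on low counts. With at least 10 reads in every library, 2 of the other amino acid genes were called lower in place of 9, since 7 of the 9 had fewer than 10 reads in some library. SLC1A3, SLC7A2, SLC7A5 and SLC6A9 kept an adjusted p under 0.05 in every alternative run. The log2 fold change of SLC38A2, which did not pass the test, ranged from -0.25 to 0.03 when single libraries were left out. It was -0.25 without sh-KLF5 replicate 1 and 0.03 without sh-KLF5 replicate 2 or 3. The normalized count was 34993 in sh-KLF5 replicate 1, against 23795 and 23739.8 in replicates 2 and 3. What set these libraries apart was not tested. The share of SLC7A5 in the summed level in sh-NC was 44.9% by the longest coding transcript. No scaling moved the median of all genes by more than 0.1 on the log2 scale. The filter on low counts kept 14 genes out of the main test.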
